A study of Homo sapiens with 24 samples.

Results

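The transcriptome response of the B-cell lymphoma line labelled OCI-LY3 to TAK-981 was followed from the start of treatment to 8 h. The samples were chosen by their labels, as the RNA sequencing libraries of this line at 8 h of TAK-981 and at 0 h, which gave 4 of the 24 samples of the series. There were 2 libraries at 8 h and 2 libraries at 0 h, and all 13142 genes expressed in the line were described. TAK-981 is given as the treatment of all 4 libraries, the genotype of the cells is given as wild type, and the cell type as a diffuse large B-cell lymphoma B cell. The 0 h libraries were therefore the only reference, with no vehicle-treated library at 8 h analysed here, so that time in culture and treatment cannot be told apart. Its dose was not stated in the labels. The other 12 RNA libraries came from the lines labelled OCI-LY19, SU-DHL-10 and U-2932 with the same design (the design text of the series names SU-DHL4 where the sample labels have SU-DHL-10, and the labels were followed) and served to measure the spread between libraries and to test where the changes of OCI-LY3 differed.

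SUMO is a small protein that is attached to lysines of other proteins, many of them transcription factors and chromatin proteins, by an activating enzyme (SAE1 with UBA2) and further enzymes that include ligases, and is removed by SENP proteases. TAK-981 forms an adduct with SUMO in the activating enzyme and so blocks the whole pathway. In B cells, SUMO is known to be attached to regulators of NF-kB signalling, interferon genes and B-cell transcription factors, and the series concerns mitochondrial function and metabolism under this inhibitor.

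In total 21511186 and 21701687 counts fell on genes in the 8 h libraries, and 18390597 and 16770677 in those of 0 h. Values are given as CPM, counts scaled to a common library size with TMM (trimmed mean of M-values), for each library. Replicates differed by more than counting noise, with a chi-square per degree of freedom of 4.16 at 8 h and 3.86 at 0 h, so none was counted as a repeat. The labels do not say whether replicates came from separate cultures, so a p-value reflects the spread among these libraries alone, which may be technical. As these are bulk libraries, fewer cells of a kind and less RNA per cell cannot be told apart.

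The label of the line was checked against marker genes before any change was read. All 8 B-cell markers, among them MS4A1, CD79A, CD79B, CD22, PAX5, EBF1 and CD74, were present in all 4 libraries. OCI-LY3 is known in the field as an activated B-cell type lymphoma line, which usually has high levels of the transcription factor IRF4. Here IRF4 had 28.4 and 25.2 CPM at 8 h, against 6.17 and 5.87 CPM at 0 h, and the mean of the U-2932 libraries at 0 h was 581 CPM. BCL6, the master regulator of the germinal centre, was present at 195 and 202 CPM at 0 h, and MME, the germinal centre surface enzyme CD10, at 109.9 and 113 CPM. At 0 h the OCI-LY3 and OCI-LY19 libraries correlated with r = 0.984 across 17327 genes on the log2(CPM + 1) scale, against 0.912 for SU-DHL-10 and 0.874 for U-2932, and genes are not independent replicates. Genes that reached 10 CPM in either line while staying under 0.1 CPM in its partner numbered 1 for OCI-LY19, 230 for SU-DHL-10 and 339 for U-2932. Other markers did not all place SU-DHL-10 nearer than U-2932. LMO2, a germinal centre marker, had 0.224 and 0 CPM at 0 h, against a mean of 173 CPM in SU-DHL-10, and of the activated-type markers PIM1 had 251 and 229 CPM, PIM2 137 and 138 CPM and BATF 23.8 and 27.5 CPM, against means of 2.54, 19.0 and 0.361 CPM in SU-DHL-10. In U-2932 at 0 h PIM1, PIM2 and BATF had means of 364, 718 and 50.6 CPM. In OCI-LY19 at 0 h the levels were near those of OCI-LY3. IRF4 had a mean of 4.93 CPM there, LMO2 0.0493, PIM1 314, PIM2 90.1 and BATF 25.5 CPM. At 0 h the 12 activated-type markers summed to 517 and 501 CPM, with 2325 CPM in U-2932 and 71.4 CPM in SU-DHL-10. The 8 germinal centre markers summed to 951 and 977 CPM, with 163 CPM in U-2932 and 1088 CPM in SU-DHL-10. The low IRF4 goes against the usual description of OCI-LY3. The activated-type sum lay between those of SU-DHL-10 and U-2932, and the germinal centre sum near that of SU-DHL-10. In OCI-LY19 at 0 h the activated-type sum was 534 CPM, near that of OCI-LY3. The germinal centre sum was lower there, at 515 CPM, with SERPINA9 at a mean of 8.11 CPM. All results below are therefore those of the libraries labelled OCI-LY3. Markers of other cells were low. Of 14 T and NK cell markers, 7 were at 0 in all 4 libraries, among them CD3D and CD3G, and the list summed to 9.43 and 9.48 CPM at 8 h, against 13.7 and 15.6 CPM at 0 h. The 10 monocyte markers summed to 5.46 and 3.61 CPM at 8 h, against 7.85 and 8.71 CPM at 0 h. Of the 12 epithelial and stromal markers only COL1A1 passed 1 CPM, with 125 and 121 CPM at 8 h, against 97.9 and 78.4 CPM at 0 h. COL1A1 had a mean of 75.0 CPM at 0 h in OCI-LY19 as well, and 0.067 and 0.881 CPM in SU-DHL-10 and U-2932.

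A gene is termed called, and said to have risen or fallen, where edgeR's quasi-likelihood test gave a Benjamini-Hochberg adjusted p under 0.05 over all 17327 genes tested. At 8 h 4420 genes were called, which is 25.5% of those tested, with 2258 higher (13%) and 2162 lower (12.5%). Among the 13142 genes expressed in the line, 32.5% were called, with 16.7% higher and 15.8% lower. Counts of called members in the lists below are to be read against these shares. Most changes were small, with a median absolute log2 fold change of 0.51 among called genes. A change of 2-fold or more was found for 428 genes that rose and 542 genes that fell, and a change of 4-fold or more for 179 and 181. The median of all genes tested was 0.00 with TMM and 0.20 when libraries were scaled by their 92 spike-in RNAs, so small falls depend on the scaling. With spike-in scaling 3554 genes were called, of which 81.3% were higher, against 51.1% with TMM. The share of spike-in RNAs was 0.0634% ± 0.00835 at 8 h and 0.0769% ± 0.00765 at 0 h (SD, n = 2 each), and 2 against 2 libraries cannot give a two-sided exact p under 0.333 for such a share. In a test against a change of 1.5-fold rather than 0, 757 genes were called. Most genes named below were picked for a small p or a large change. Where their groups are said to lie apart, this follows largely from that choice and adds no support. The share of all genes with groups apart is not given here.

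**Figure D1:**
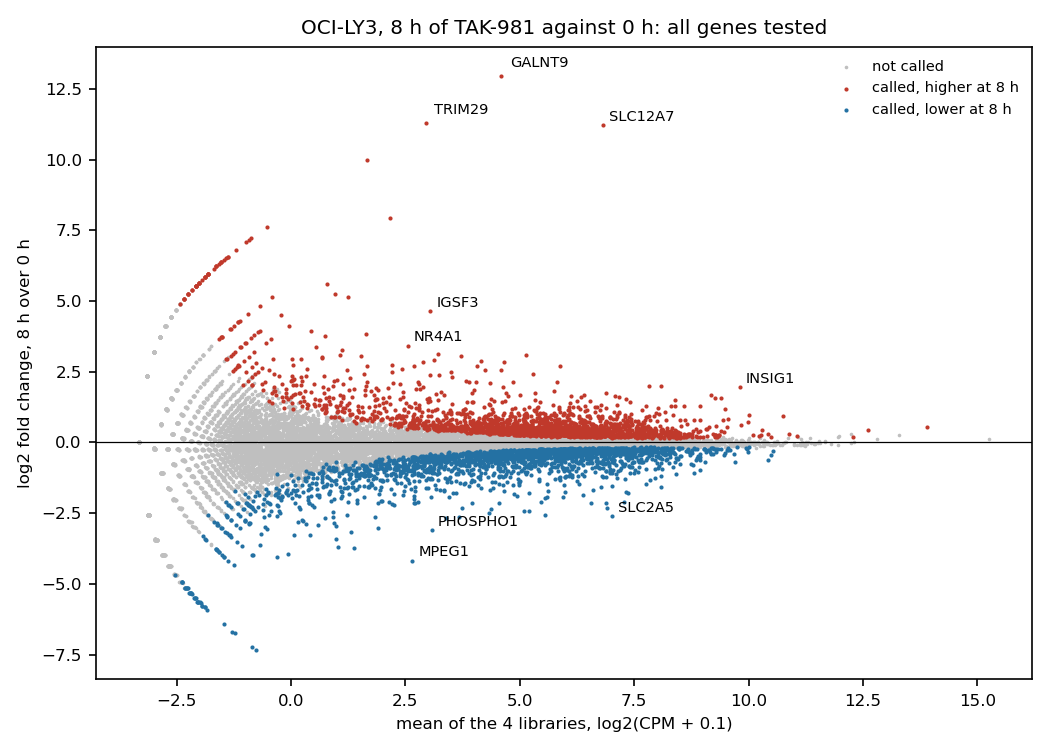
Each point is 1 of the 17327 genes tested in OCI-LY3, with the mean of the 4 libraries on a log2(CPM + 0.1) scale on the x axis and the log2 fold change of 8 h over 0 h on the y axis. Called genes that rose are red, called genes that fell are blue, and others are grey. GALNT9, TRIM29 and SLC12A7 stand far above all other well-expressed genes, and the arcs at the left are genes with few counts.

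Within the SUMO pathway the changes were small. The activating enzyme subunits were not called. SAE1 had 255 and 263 CPM at 8 h, against 242 and 254 CPM at 0 h, with a log2 fold change of 0.06 ± 0.06 (SE). UBA2 had 422 and 431 CPM at 8 h, against 399.7 and 438 CPM at 0 h, with a log2 fold change of 0.03 ± 0.06, and its groups overlapped. The SUMO proteins SUMO2 and SUMO3 rose, by 0.36 ± 0.06 and 0.42 ± 0.07 on the log2 scale, with SUMO2 at 268 and 258 CPM at 8 h, against 203 and 206 CPM at 0 h. The libraries of the groups did not overlap for either. Of 10 SUMO ligases 6 rose and 1 fell, with a median log2 fold change of 0.28 against 0.00 for all genes. PIAS1, a ligase for transcription factors, rose by 0.72 ± 0.08, and PIAS4 by 0.45 ± 0.10. RANBP2, the ligase of the nuclear pore, was the member that fell (-0.21 ± 0.07; chosen after its value was seen). Of 10 SUMO proteases 4 rose and 0 fell, which is 40% called, against 32.5% of expressed genes. The largest change was in USPL1 (0.75 ± 0.11). Smaller ones were in SENP5 (0.34 ± 0.08) and SENP6 (0.23 ± 0.06), and the call of SENP6 was lost without 0 h replicate 1 or 8 h replicate 1.

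The largest increases were in genes with almost no counts at 0 h. SLC12A7, which encodes a potassium-chloride cotransporter, had 9086 counts over the libraries at 8 h and 3 over those at 0 h, a ratio of 2526 per effective library size (95% interval 864 to 12249, counting error only). GALNT9, an enzyme that starts O-linked glycosylation, had 1950 counts at 8 h and 0 at 0 h, and was at least 542-fold higher when 0 h was set to a floor of 3 counts over the group. TRIM29, a tripartite motif protein, had 616 counts at 8 h and 0 at 0 h, at least 171-fold higher against that floor. In each of these genes both libraries at 8 h lay far above both at 0 h, with 218 and 232 CPM at 8 h, against 0.112 and 0.0631 CPM at 0 h for SLC12A7, 45.2 and 51.4 CPM at 8 h for GALNT9, and 16.6 and 13.9 CPM at 8 h for TRIM29. RNF223, a RING finger protein, had 249 counts at 8 h and 0 at 0 h, at least 69.2-fold higher. Clones, antisense RNAs, pseudogenes and variable segments aside, no gene at 5 CPM or more at 0 h had 3 counts or fewer at 8 h. These 4 genes were also higher at 8 h in OCI-LY19, where SLC12A7 had means of 500.1 CPM at 8 h and 4.08 CPM at 0 h and GALNT9 had 59.9 and 0.0748 CPM. In SU-DHL-10 SLC12A7 had means of 2.05 CPM at 8 h and 0.271 CPM at 0 h and GALNT9 was at 0 CPM at both times. In U-2932 SLC12A7 had 145.9 CPM at 8 h and 110.1 CPM at 0 h, and the other 3 were under 1 CPM at both times. SLC12A7 was called higher at 8 h in all 4 lines.

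Among genes at a mean of 5 CPM or more and with over 3 counts at 0 h, IGSF3, an immunoglobulin superfamily membrane protein, rose most, with 15.5 and 15.9 CPM at 8 h, against 0.673 and 0.568 CPM at 0 h (log2 fold change 4.64 ± 0.30, edgeR adjusted p = 7.33e-14). DHRS2, a short-chain dehydrogenase, had 40.4 and 47.1 CPM at 8 h, against 5.72 and 6.44 CPM at 0 h. SMAD7, which holds back TGF-beta signalling, had 27.4 and 30.1 CPM at 8 h, against 5.16 and 3.53 CPM at 0 h. Others with rises of similar size were DIP2C (3.13 ± 0.17), GABRA5, a subunit of the GABA receptor (2.90 ± 0.26), MAFF, a small MAF transcription factor (2.86 ± 0.15), and MYT1, a zinc finger transcription factor of neural cells (2.83 ± 0.19). MPEG1, a pore-forming protein of phagocytic and immune cells, fell most among genes at a mean of 5 CPM or more, with 0.397 and 0.889 CPM at 8 h, against 10.8 and 12.7 CPM at 0 h (log2 fold change -4.17 ± 0.29). PHOSPHO1, a phosphatase acting on phosphocholine, had 1.49 and 1.98 CPM at 8 h, against 15.5 and 14.4 CPM at 0 h. SLC2A5, the fructose transporter, had 34.6 and 38.8 CPM at 8 h, against 216 and 226 CPM at 0 h. In all of these genes the libraries of the groups did not overlap, which the rule that named them required. Further falls of more than 2 on the log2 scale were those of ABI3, an adaptor of actin regulation (-2.55 ± 0.11), NUGGC, a nuclear GTPase of germinal centre B cells (-2.43 ± 0.11), PTAFR, the receptor of platelet-activating factor (-2.41 ± 0.12), WNK2, a kinase (-2.36 ± 0.13), IL16 (-2.30 ± 0.18) and KCNN3, a calcium-activated potassium channel (-2.15 ± 0.09).

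NF-kB transcription factors are dimers of REL family proteins that are held in the cytoplasm by IkB inhibitors until these are degraded, and they switch on their own inhibitors as negative feedback. All 5 subunit genes rose, with a median log2 fold change of 0.95, against 13% of all genes tested that rose. NFKB1 had 480.5 and 504 CPM at 8 h, against 171 and 179 CPM at 0 h (log2 fold change 1.49 ± 0.06, edgeR adjusted p = 9.64e-19). NFKB2 had 985 and 1018 CPM at 8 h, against 444 and 432 CPM at 0 h, and REL, the main subunit of B cells, 118 and 115 CPM at 8 h, against 65.8 and 54.4 CPM at 0 h. RELB rose by 0.54 ± 0.08, and RELA, which is outside the naming rule and given to complete the family, by 0.20 ± 0.07. For each of these subunits both libraries at 8 h lay above both at 0 h. Of 12 inhibitors of the pathway 11 rose and 0 fell, with a median of 0.77. TNFAIP3, the deubiquitinase A20 that ends NF-kB signalling, had 875 and 893 CPM at 8 h, against 284 and 268 CPM at 0 h (1.68 ± 0.07, edgeR adjusted p = 8.26e-20). NFKBIA, the IkB-alpha inhibitor, had 442 and 474 CPM at 8 h, against 266 and 259 CPM at 0 h (0.80 ± 0.07). The deubiquitinases CYLD and OTULIN, which remove ubiquitin chains from signalling complexes, rose by 1.06 ± 0.07 and 1.02 ± 0.07. TNIP1 was the member that was not called, at 479 and 487 CPM at 8 h, against 514 and 516 CPM at 0 h (chosen after its values were seen).

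Of 32 NF-kB target genes 31 were tested, and 26 rose while 2 fell, with a median of 0.71. This list shares members with those of the subunits and inhibitors, among them NFKB1 and NFKBIA. TRAF1, a signalling adaptor of the TNF receptor family, had 912 and 922 CPM at 8 h, against 316 and 301 CPM at 0 h (1.57 ± 0.06). ICAM1, the adhesion molecule that binds LFA-1, had 472 and 482 CPM at 8 h, against 202 and 193 CPM at 0 h (1.27 ± 0.07). EBI3, a cytokine subunit, had 424 and 465 CPM at 8 h, against 185 and 182 CPM at 0 h (1.28 ± 0.07), and CCL4, a chemokine that attracts T cells, had 21.8 and 24.9 CPM at 8 h, against 2.92 and 2.71 CPM at 0 h (3.05 ± 0.16). In all 4 the groups were fully apart. Reads of CCL4 may be shared with its near-identical copy CCL4L2, so its level is uncertain. LTB and CCL22 were the members that fell, by 0.98 ± 0.15 and 0.60 ± 0.07 on the log2 scale, and were named after their values were seen. Of 29 chemokines, cytokines and their receptors 26 were tested, and 8 rose and 4 fell, with IL10RA, a receptor chain for interleukin 10, at 1.38 ± 0.10 and CXCR4, the receptor that holds B cells in the dark zone of the germinal centre, at -1.18 ± 0.08. Of 25 genes for costimulation and adhesion 10 rose and 7 fell. CD80, which costimulates T cells, had 108 and 104 CPM at 8 h, against 35.1 and 32.8 CPM at 0 h (1.64 ± 0.09), whereas the integrin chains ITGAL and ITGB7 had 8.34 and 9.09 CPM at 8 h, against 38.6 and 37.4 CPM at 0 h (-2.12 ± 0.11) and 11.6 and 14.3 CPM at 8 h, against 48.7 and 47.6 CPM at 0 h (-1.89 ± 0.11).

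The region upstream of the start of these genes was read from RefSeq promoters (GRCh38.p14), for 250 bases. The NF-kB consensus, searched on both strands, was found in 12 of 24 target genes with a promoter in the table (50%), in 6 of 11 inhibitor genes (54.5%) and in 3 of 4 subunit genes, against 15.2% of the 11545 tested genes with a promoter there. These lists share members such as NFKB1 and NFKBIA. They were assembled from genes known to be NF-kB targets, so the share describes the lists and not the response. Below are the windows of TNFAIP3, NFKBIA and BIRC3, which restrain or follow the pathway, with each match in capitals, 5′ to 3′ on the strand of the gene. BIRC3, an inhibitor of apoptosis, was chosen after its values were seen and rose by 0.71 ± 0.10, with 1287 and 1245 CPM at 8 h, against 736 and 807 CPM at 0 h. TNFAIP3 lies on the plus strand at chr6:137867009-137867258, NFKBIA on the minus strand at chr14:35404750-35404999 and BIRC3 on the plus strand at chr11:102317234-102317483.
TNFAIP3: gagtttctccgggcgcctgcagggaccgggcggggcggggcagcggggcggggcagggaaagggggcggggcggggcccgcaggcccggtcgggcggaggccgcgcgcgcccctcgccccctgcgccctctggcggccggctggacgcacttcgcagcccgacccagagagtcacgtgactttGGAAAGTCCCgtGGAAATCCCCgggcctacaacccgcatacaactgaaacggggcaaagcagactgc
NFKBIA: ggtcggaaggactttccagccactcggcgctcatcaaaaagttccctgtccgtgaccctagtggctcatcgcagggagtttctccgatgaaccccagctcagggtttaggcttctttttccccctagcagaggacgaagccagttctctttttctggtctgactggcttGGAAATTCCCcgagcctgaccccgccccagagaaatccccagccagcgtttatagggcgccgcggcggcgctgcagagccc
BIRC3: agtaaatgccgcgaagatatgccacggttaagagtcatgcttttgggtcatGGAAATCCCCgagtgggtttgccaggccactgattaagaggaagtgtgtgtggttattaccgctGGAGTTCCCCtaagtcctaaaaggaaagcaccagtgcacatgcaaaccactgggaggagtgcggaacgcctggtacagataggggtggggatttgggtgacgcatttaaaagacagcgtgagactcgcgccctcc
TNFAIP3 and BIRC3 held 2 matches each and NFKBIA held 1. Only NF-kB windows with a match are shown. TRAF1, a target that rose and has 3 listed starts, held 0 matches, as did SLC12A7 and GALNT9. A match is a run of letters and was not tested for binding.

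**Figure D2:**
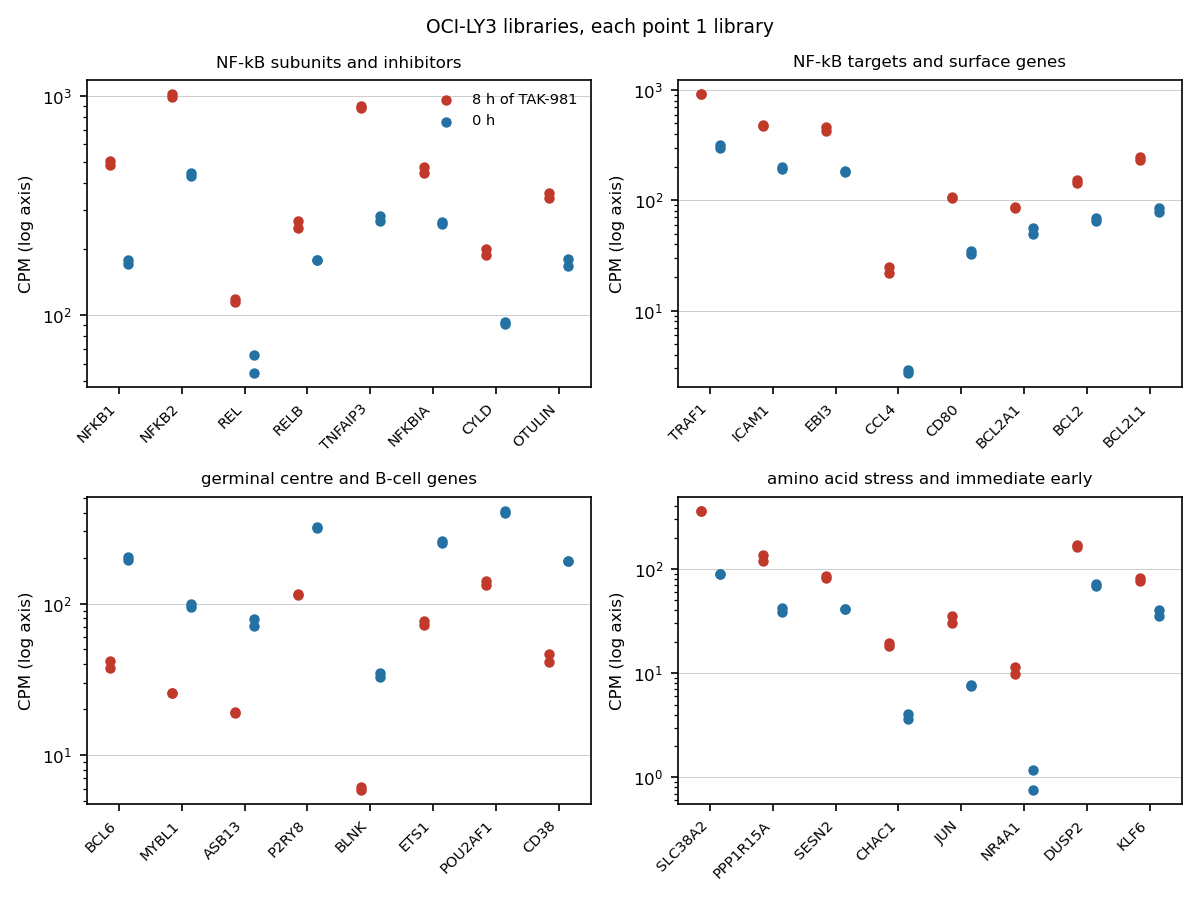
CPM on a log axis in each OCI-LY3 library for 32 genes in 4 groups, with the libraries at 8 h of TAK-981 in red to the left of those at 0 h in blue. Points of the same colour lie close together and the colours do not overlap for any gene. The genes drawn are called members with the smallest p of their lists, so this separation follows largely from that choice. The NF-kB genes, their targets and the stress genes are higher at 8 h, and the germinal centre and B-cell genes are lower.

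Immediate early genes, which respond to receptor signals within minutes and code for AP-1 and EGR family transcription factors and for phosphatases of their kinases, were among the strongest groups. Of 26 tested members 15 rose and 1 fell, with a median of 0.98. NR4A1, an orphan nuclear receptor induced by antigen receptor signals, had 9.73 and 11.4 CPM at 8 h, against 1.18 and 0.757 CPM at 0 h (3.42 ± 0.27). JUN, an AP-1 subunit, had 30.2 and 35.3 CPM at 8 h, against 7.62 and 7.51 CPM at 0 h (2.11 ± 0.13), and DUSP2, a phosphatase of MAP kinases, had 162 and 169 CPM at 8 h, against 71.8 and 69.3 CPM at 0 h (1.23 ± 0.09). Both libraries at 8 h lay above both at 0 h in each. KLF6, a zinc finger transcription factor, rose by 1.06 ± 0.08. BTG2, an antiproliferative gene, was the member that fell, with 30.7 and 37.2 CPM at 8 h, against 65.4 and 71.5 CPM at 0 h (-1.01 ± 0.10).

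Most germinal centre genes fell. Of 22 germinal centre genes 15 fell and 0 rose, with a median of -0.81 (-0.56 after spike-in scaling). BCL6 had 37.7 and 41.6 CPM at 8 h, against 195 and 202 CPM at 0 h (-2.32 ± 0.08, edgeR adjusted p = 1.52e-20). MYBL1, a MYB family transcription factor of germinal centre cells, had 25.6 and 25.8 CPM at 8 h, against 99.8 and 94.5 CPM at 0 h (-1.92 ± 0.10), and P2RY8, a receptor that confines B cells to the germinal centre, had 115 and 114 CPM at 8 h, against 314 and 320.0 CPM at 0 h (-1.47 ± 0.07). ASB13 and S1PR2, which also keeps cells in the germinal centre, fell by 1.98 and 1.21 on the log2 scale. SERPINA9 and ITPKB, from the same marker list, were not called, with 236 and 244 CPM at 8 h, against 225 and 244 CPM at 0 h for SERPINA9, where the groups overlapped.

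Most genes of B-cell receptor signalling fell as well. Of 30 surface and signalling genes 22 fell and 3 rose, with a median of -0.60. BLNK, the adaptor that links the receptor to phospholipase C, had 6.1 and 5.88 CPM at 8 h, against 32.6 and 34.9 CPM at 0 h (-2.49 ± 0.12). CD79B, a signalling chain of the receptor, had 71.8 and 65 CPM at 8 h, against 154 and 154 CPM at 0 h (-1.17 ± 0.08), while its partner CD79A had 513 and 524 CPM at 8 h, against 672 and 689 CPM at 0 h (-0.39 ± 0.06). INPP5D, the inhibitory lipid phosphatase SHIP1, had 133 and 132 CPM at 8 h, against 328 and 332 CPM at 0 h (-1.32 ± 0.07), and BLK, a SRC family kinase, 84.9 and 88.8 CPM at 8 h, against 194 and 185 CPM at 0 h (-1.13 ± 0.07). FCRLA, which encodes an Fc receptor-like protein, had a log2 fold change of -1.29 ± 0.07. The libraries of the groups were apart for all of them, and with spike-in scaling CD79A was no longer called. The 3 that rose were DAPP1 (0.67 ± 0.09), PIK3CD and LYN (0.27 ± 0.07), named after their values were seen. Of 12 SRC kinases and their regulators 7 fell and 2 rose, with a median of -1.01. FGR had 52.7 and 57.3 CPM at 8 h, against 160.1 and 165 CPM at 0 h (-1.56 ± 0.09), PTPRC, the phosphatase CD45 that activates SRC kinases, had 162 and 171 CPM at 8 h, against 364 and 389.6 CPM at 0 h (-1.18 ± 0.07), and PTPN22, which restrains them, fell by 1.52 ± 0.11.

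Of 19 B-cell transcription factors 12 fell and 1 rose, with a median of -0.33 (-0.08 after spike-in scaling). ID3, which blocks E proteins such as TCF3, had 2.53 and 3.01 CPM at 8 h, against 15.8 and 19.9 CPM at 0 h (-2.68 ± 0.18). ETS1 had 76.4 and 72 CPM at 8 h, against 251 and 257 CPM at 0 h (-1.78 ± 0.07), and POU2AF1, the B-cell coactivator OCA-B, had 133 and 140.3 CPM at 8 h, against 399 and 411 CPM at 0 h (-1.57 ± 0.09). Its partner POU2F2, the octamer factor OCT2, fell by 1.04 ± 0.06. The groups did not overlap for any of these. IKZF1, or Ikaros, was the member that rose (0.44 ± 0.06; named after its value was seen). PAX5, the factor that maintains B-cell identity, had 387 and 370.3 CPM at 8 h, against 477 and 490.4 CPM at 0 h.

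Genes of activated B cells and plasma cells changed in few members. Of 27 members 3 rose and 5 fell, with a median of -0.05 (0.20 after spike-in scaling). That is 29.6% called, between the 25.5% of all genes tested and the 32.5% of expressed genes. IRF4, given above, rose by 2.15 ± 0.13 (edgeR adjusted p = 7.04e-15), and BATF, an AP-1 family partner of IRF4, had 41.9 and 43.9 CPM at 8 h, against 23.8 and 27.5 CPM at 0 h (0.74 ± 0.11). CD38, an enzyme on the surface of germinal centre and plasma cells, had 41 and 46.3 CPM at 8 h, against 192 and 192 CPM at 0 h (-2.14 ± 0.11), and JCHAIN, the joining chain of secreted antibodies, had 190.1 and 189 CPM at 8 h, against 321 and 359.6 CPM at 0 h (-0.84 ± 0.07). TNFRSF13B, the BAFF and APRIL receptor TACI, had 0.496 and 0.494 CPM at 8 h, against 3.2 and 2.97 CPM at 0 h (-2.63 ± 0.28). IRF4 and BATF were higher and the other 3 lower in both libraries at 8 h. PRDM1, the master regulator of plasma cells, had 3.52 and 3.06 CPM at 8 h, against 4.88 and 4.23 CPM at 0 h and was not called (edgeR adjusted p = 0.109). The 8 germinal centre markers summed to 534 and 532 CPM at 8 h, against 951 and 977 CPM at 0 h, and the 12 activated B-cell markers to 542 and 569 CPM at 8 h, against 517 and 501 CPM at 0 h.

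MicroRNA host genes are transcribed as long RNAs from which the microRNAs are cut. Of 7 tested host genes 4 rose and 0 fell, with a median of 0.94. The counts are those of the poly(A) host RNA, and the mature microRNAs were not measured. MIR3142HG, the host of miR-146a, had 40.8 and 41.2 CPM at 8 h, against 8.19 and 5.62 CPM at 0 h (2.56 ± 0.15). MIR17HG, the host of the miR-17-92 cluster, had 53.3 and 45.1 CPM at 8 h, against 17.8 and 12.7 CPM at 0 h (1.68 ± 0.13), and MIR155HG, the host of miR-155, a regulator of the germinal centre response, had 115 and 107 CPM at 8 h, against 49.3 and 48 CPM at 0 h (1.19 ± 0.09). DLEU2, the host of miR-15a and miR-16, had 31 and 26.2 CPM at 8 h, against 15.1 and 14.7 CPM at 0 h (0.94 ± 0.13). All 4 were higher in both libraries at 8 h. Below are the mature microRNAs of these hosts from RefSeq (GRCh38.p14), with the seed, bases 2 to 8, in capitals, since the seed decides which messages a microRNA can pair with.
hsa-miR-146a-5p: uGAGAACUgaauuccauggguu
hsa-miR-155-5p: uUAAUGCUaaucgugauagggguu
hsa-miR-17-5p: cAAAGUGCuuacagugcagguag
hsa-miR-20a-5p: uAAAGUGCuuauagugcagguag
hsa-miR-18a-5p: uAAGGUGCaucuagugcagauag
hsa-miR-19a-3p: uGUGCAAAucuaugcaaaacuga
hsa-miR-19b-3p: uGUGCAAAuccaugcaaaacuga
hsa-miR-92a-3p: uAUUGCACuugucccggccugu
hsa-miR-15a-5p: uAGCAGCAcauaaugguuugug
hsa-miR-16-5p: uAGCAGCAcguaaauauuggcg
The seed is shared by miR-17 and miR-20a, by miR-19a and miR-19b, and by miR-15a and miR-16, while miR-18a differs from miR-17 within the seed.

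ATF4 is the transcription factor of the integrated stress response, which raises amino acid uptake and synthesis when amino acids are short or unfolded proteins build up. Of 29 tested members of the list for ATF4 and amino acid stress 20 rose and 2 fell, with a median of 0.38. SLC38A2, an amino acid transporter, had 362 and 359.9 CPM at 8 h, against 90.4 and 89 CPM at 0 h (2.01 ± 0.08, edgeR adjusted p = 9.94e-20). PPP1R15A, the phosphatase subunit GADD34 that ends the stress response, had 120.3 and 137 CPM at 8 h, against 38.3 and 42.5 CPM at 0 h (1.67 ± 0.09). CHAC1, which degrades glutathione, had 18.2 and 19.4 CPM at 8 h, against 4.04 and 3.6 CPM at 0 h (2.30 ± 0.19), and SESN2, a leucine sensor, 81.7 and 85.8 CPM at 8 h, against 41 and 41.1 CPM at 0 h (1.03 ± 0.09). In each of them the groups were apart. The members that fell were PSPH and PHGDH, enzymes of serine synthesis (-0.37 ± 0.08 and -0.23 ± 0.07; named after their values were seen). Of 20 aminoacyl-tRNA synthetases, which load tRNAs, 8 rose and 0 fell (40% called, against 32.5% of expressed genes), with CARS1 at 0.72 ± 0.08 and SARS1 at 0.60 ± 0.07. Of 17 amino acid transporters 9 rose and 3 fell, with SLC36A1, a lysosomal and surface transporter, at 0.72 ± 0.11, SLC1A5, the glutamine transporter, at 0.42 ± 0.06 and SLC43A2 at -0.66 ± 0.09, not called with spike-in scaling.

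The motif TGATGNAA, which is read by dimers of ATF4 and C/EBP proteins, was searched on both strands of the same 250-base windows. It was found in 4 of 22 genes of the ATF4 list (18.2%), namely ASNS, ATF3, CEBPG and CHAC1, in 3 of 16 synthetase genes and in 1 of 16 transporter genes, against 2.38% of the tested genes. The window of CHAC1, the member with the largest called change, is shown with the match in capitals, on the reverse strand (chr15:40953221-40953470, plus strand of GRCh38.p14, RefSeq).
CHAC1: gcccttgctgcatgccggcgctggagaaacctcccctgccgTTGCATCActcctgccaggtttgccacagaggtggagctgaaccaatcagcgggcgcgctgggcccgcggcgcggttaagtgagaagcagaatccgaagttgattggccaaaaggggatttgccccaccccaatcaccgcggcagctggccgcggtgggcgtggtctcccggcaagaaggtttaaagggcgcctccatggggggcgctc
CHAC1 held 1 match. As the list was drawn from known ATF4 targets, its share of matches describes the list.

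Chaperones changed in part. Of 22 genes for chaperones of the endoplasmic reticulum and the unfolded protein response 7 rose and 5 fell. HSP90B1, the chaperone GRP94, had 699.5 and 703 CPM at 8 h, against 279.8 and 287 CPM at 0 h (1.31 ± 0.07), HERPUD1, a degradation factor of the endoplasmic reticulum, rose by 0.73 ± 0.08, and ATF6, a sensor of unfolded proteins, by 0.64 ± 0.08. SYVN1, a ubiquitin ligase of the same pathway, had 150.4 and 162 CPM at 8 h, against 259.9 and 247 CPM at 0 h (-0.70 ± 0.07). Of 22 tested cytosolic heat shock genes 7 rose and 2 fell (40.9% called, against 32.5% of expressed genes), with a median of -0.01 (0.24 after spike-in scaling). DNAJB1 had 210.4 and 218 CPM at 8 h, against 125 and 137 CPM at 0 h (0.71 ± 0.07), CHORDC1 rose by 0.55 ± 0.07, and HSPH1, a nucleotide exchange factor, by 0.43 ± 0.07.

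Most genes of cholesterol synthesis and uptake fell, and INSIG1 rose. Of 29 tested members 19 fell and 2 rose, with a median of -0.32 (-0.08 after spike-in scaling). INSIG1, which retains the regulator SCAP in the endoplasmic reticulum and so holds back cholesterol synthesis, had 1423 and 1428 CPM at 8 h, against 341 and 395 CPM at 0 h (1.95 ± 0.08, edgeR adjusted p = 5.28e-19). MVD, an enzyme of the mevalonate pathway, had 124 and 121 CPM at 8 h, against 218 and 234 CPM at 0 h (-0.88 ± 0.07), and IDI1, which follows it, 155 and 152 CPM at 8 h, against 230.1 and 267 CPM at 0 h (-0.69 ± 0.07). TM7SF2, a sterol reductase, had 16 and 13.1 CPM at 8 h, against 34.9 and 31.7 CPM at 0 h (-1.19 ± 0.13). INSIG1 was higher and the enzymes were lower in both libraries at 8 h. FDFT1 was the other member that rose (0.54 ± 0.07; named after its value was seen). Of 16 tested genes for fatty acid synthesis 8 fell and 4 rose, with a median of -0.18 (0.07 after spike-in scaling). SCD, a desaturase, had 1119 and 1057 CPM at 8 h, against 1609 and 1721 CPM at 0 h (-0.61 ± 0.07), and FASN, the fatty acid synthase, 1217 and 1222 CPM at 8 h, against 1660.3 and 1614 CPM at 0 h (-0.43 ± 0.06), and neither was called with spike-in scaling. ACSL1, which activates fatty acids, had 291 and 288 CPM at 8 h, against 207 and 216 CPM at 0 h (0.46 ± 0.06).

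Of 27 genes for glycolysis and lactate 5 rose and 5 fell (37.0% called, against 32.5% of expressed genes), with a median of -0.03 (0.23 after spike-in scaling). Besides SLC2A5, TXNIP, an inhibitor of glucose uptake, fell, with 17.3 and 18.6 CPM at 8 h, against 36.8 and 34.8 CPM at 0 h (-0.9989 ± 0.09). HK2, a hexokinase, had 203 and 194 CPM at 8 h, against 128 and 129.9 CPM at 0 h (0.62 ± 0.06), and the glucose transporter SLC2A3 had 21.7 and 19.9 CPM at 8 h, against 8.91 and 6.31 CPM at 0 h (1.44 ± 0.17). The groups did not overlap for these genes.

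Some nuclear genes for mitochondrial proteins fell by small amounts under TMM scaling. Of 37 genes of respiratory complex I 10 fell and 0 rose, with a median of -0.11, and of 38 genes of complexes II to V 9 fell and 0 rose, with a median of -0.15. The shares called were 27.0% and 23.7%, near the 25.5% of all genes tested, of which 12.5% fell. Both shares lay below the 32.5% called among expressed genes, of which 15.8% fell. With spike-in scaling these medians were 0.14 and 0.11, so the direction of the medians depended on the scaling. NDUFA8, a complex I subunit, had 45.6 and 41.1 CPM at 8 h, against 57.5 and 58.4 CPM at 0 h (-0.42 ± 0.09), and NDUFB7, another, 41.7 and 44.2 CPM at 8 h, against 54.8 and 55.3 CPM at 0 h (-0.36 ± 0.09). SDHC, which anchors complex II in the membrane, had 18.2 and 19.5 CPM at 8 h, against 26.6 and 28.7 CPM at 0 h (-0.55 ± 0.09). With spike-in scaling none of these 3 was called. The ATP synthase subunits ATP5F1A and ATP5F1C had log2 fold changes of -0.18 ± 0.06 and -0.19 ± 0.06 with TMM, and of 0.07 and 0.06 with spike-in scaling, and both lost their call without 0 h replicate 2 or 8 h replicate 1, ATP5F1C also without either of the other libraries and without a filter. Of 78 genes of the mitochondrial ribosome 24 fell and 1 rose, with a median of -0.15 (0.11 after spike-in scaling). That is 32.1% called, against 32.5% of expressed genes called and 15.8% lower. MRPL36 fell by 0.73 ± 0.08 and MRPL35 by 0.50 ± 0.08, of which MRPL35 was not called with spike-in scaling.

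Of 30 genes for pyruvate entry and the TCA cycle 9 fell and 2 rose (36.7% called, against 32.5% of expressed genes), with a median of -0.13 (0.12 after spike-in scaling). IDH1, the cytosolic isocitrate dehydrogenase, had 39.9 and 43.1 CPM at 8 h, against 77.6 and 89 CPM at 0 h (-1.0029 ± 0.10). The subunits of the mitochondrial pyruvate carrier went apart, MPC1 with 191 and 209 CPM at 8 h, against 126 and 132 CPM at 0 h (0.63 ± 0.08) and MPC2 with 23.5 and 25.9 CPM at 8 h, against 31.8 and 37.5 CPM at 0 h (-0.49 ± 0.11). MPC2 was not called with spike-in scaling. Of 13 messages encoded in the mitochondrial genome 2 rose and 0 fell (15.4% called, against 32.5% of expressed genes), with a median of 0.20. MT-ATP6 had 2217 and 1912 CPM at 8 h, against 1774 and 1615 CPM at 0 h (0.28 ± 0.10), and MT-ND2 2398 and 2234 CPM at 8 h, against 2032 and 1877 CPM at 0 h (0.24 ± 0.09). Neither was called by DESeq2 (adjusted p = 0.199 and 0.227), and both lost their call in edgeR without 0 h replicate 2 or without 8 h replicate 1, as did MT-ND2 without either of the other libraries. Together the 13 messages took 3.53% ± 0.307 of the gene counts at 8 h, with 3.09% ± 0.271 at 0 h (SD, n = 2 each), where the smallest exact p is 0.333. Of 31 tested genes for mitochondrial biogenesis, dynamics and mitophagy 3 rose and 3 fell (19.4% called, against 32.5% of expressed genes). SQSTM1, a receptor of selective autophagy, had 363 and 392.20 CPM at 8 h, against 263 and 273 CPM at 0 h (0.50 ± 0.06), while PPARGC1B, a coactivator of mitochondrial genes, had 119.9 and 109 CPM at 8 h, against 160.5 and 150.5 CPM at 0 h (-0.44 ± 0.08) and MFN1, a fusion protein of the outer membrane, 90.4 and 89.5 CPM at 8 h, against 109 and 118 CPM at 0 h (-0.34 ± 0.07), and neither call held with spike-in scaling. OPTN, another autophagy receptor, had 0.992 and 0.692 CPM at 8 h, against 0.112 and 0 CPM at 0 h, levels of few counts. Of 21 tested antioxidant genes 3 rose and 7 fell, with NFE2L2, the regulator NRF2, at 118 and 119 CPM at 8 h, against 61.8 and 69.4 CPM at 0 h (0.85 ± 0.08) and its targets FTH1 and GSR at -0.40 ± 0.08 and -0.38 ± 0.07, which were not called with spike-in scaling.

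**Figure D3:**
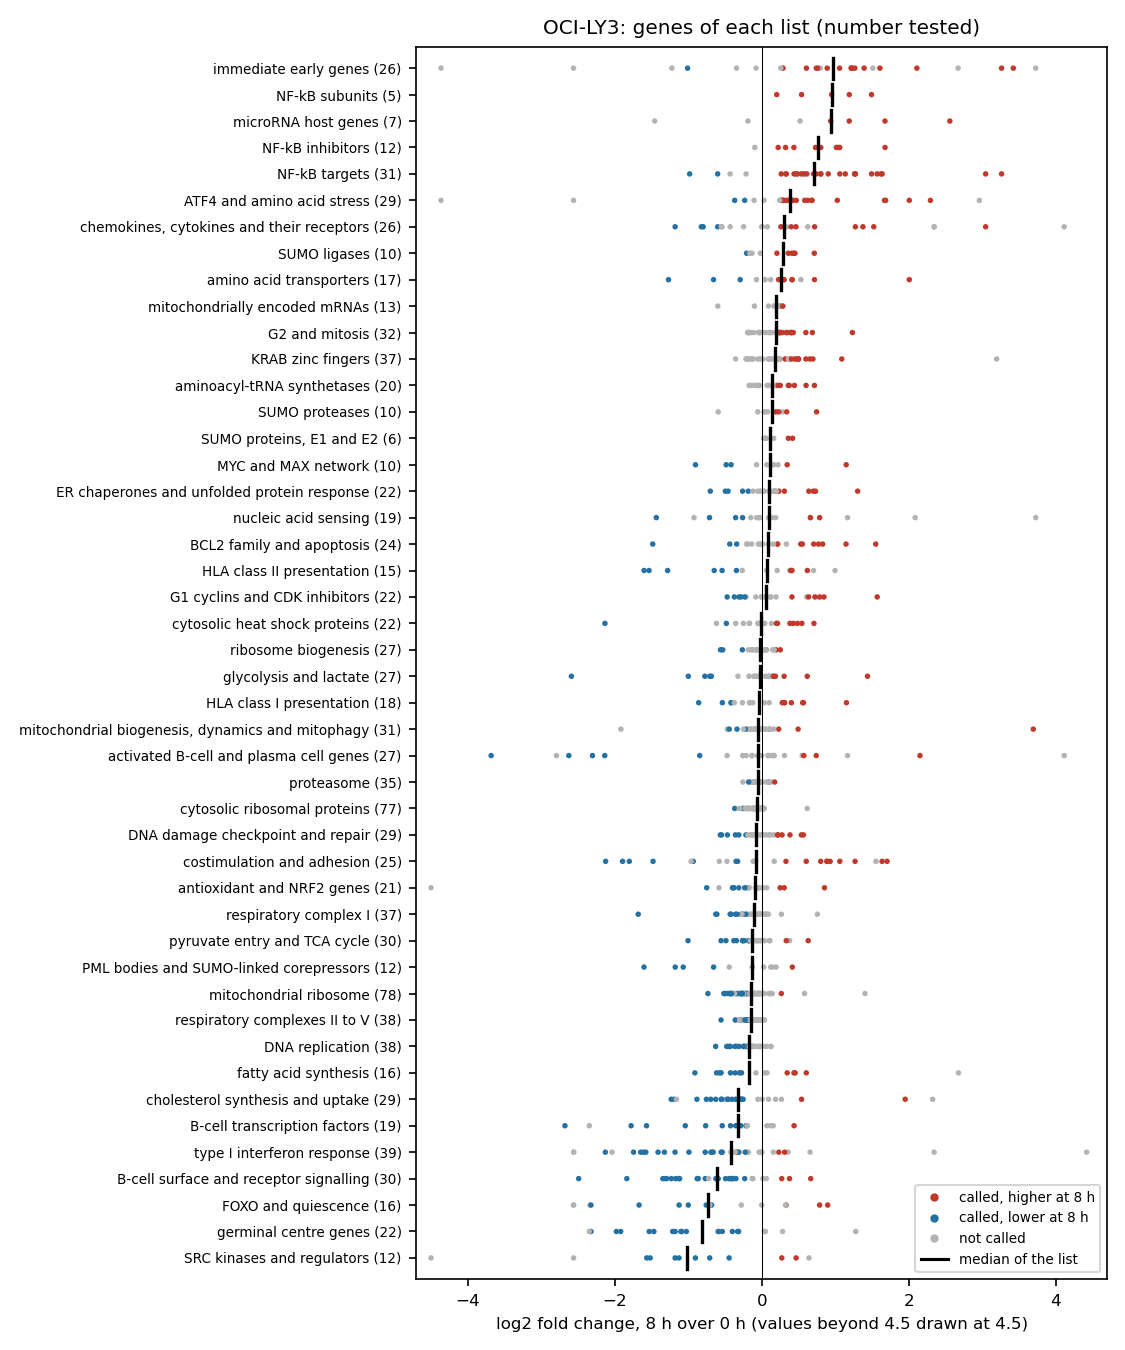
Log2 fold change of 8 h over 0 h in OCI-LY3 (x axis) for the members of 46 gene lists, ordered by the median of each list, which is drawn as a black bar; the number of members tested stands in brackets. Red points were called higher, blue points called lower and grey points were not called. The lists of immediate early genes and NF-kB stand at the top, and those of germinal centre genes and SRC kinases at the bottom.

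Among cell cycle genes the called members for DNA replication fell and nearly all of those for mitosis rose. Of 38 DNA replication genes 16 fell and 0 rose, with a median of -0.17 (0.08 after spike-in scaling). Of 32 genes for G2 and mitosis 14 rose and 1 fell, with a median of 0.20. MCM5, a subunit of the replicative helicase, had 354 and 372 CPM at 8 h, against 554 and 568 CPM at 0 h (-0.63 ± 0.06), and the subunits MCM2, MCM4 and MCM6 had log2 fold changes from -0.48 to -0.43. None of the 4 was called with spike-in scaling. CENPA, the centromeric histone, had 41.5 and 41.5 CPM at 8 h, against 18.6 and 16.7 CPM at 0 h (1.23 ± 0.10). BUB1, a kinase of the spindle checkpoint, had 179 and 180.0 CPM at 8 h, against 109 and 114 CPM at 0 h (0.69 ± 0.09), and CDK1, the mitotic kinase, 256 and 251 CPM at 8 h, against 183 and 199 CPM at 0 h (0.41 ± 0.07). In each of these genes the groups were apart. Of 22 genes for G1 cyclins and CDK inhibitors 6 rose and 5 fell. CDKN1B, the inhibitor p27, had 26.8 and 25.8 CPM at 8 h, against 16.6 and 13.8 CPM at 0 h (0.79 ± 0.12), CCNE1, cyclin E, rose by 0.72 ± 0.12, and the phosphatase CDC25A by 0.64 ± 0.07. MYC had 68.7 and 80.7 CPM at 8 h, against 133 and 146 CPM at 0 h (-0.90 ± 0.08, edgeR adjusted p = 3.82e-11), and in its network of 10 tested genes 2 rose and 3 fell, with the antagonist MXD1 at 8.34 and 6.72 CPM at 8 h, against 3.14 and 3.66 CPM at 0 h (1.15 ± 0.19).

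Of 29 tested genes for the DNA damage checkpoint and repair 6 rose and 6 fell (41.4% called, against 32.5% of expressed genes). MSH6, a mismatch repair gene, had 284 and 278 CPM at 8 h, against 409.7 and 420.0 CPM at 0 h (-0.56 ± 0.06). WEE1, the kinase that holds back CDK1, had 264 and 267 CPM at 8 h, against 181 and 177 CPM at 0 h (0.57 ± 0.07), and BRCA1 135 and 126 CPM at 8 h, against 167 and 167 CPM at 0 h (-0.36 ± 0.07). With spike-in scaling MSH6 and BRCA1 were not called.

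Among 24 genes of the BCL2 family and apoptosis 8 rose and 3 fell, and the strongest tests were those of survival genes. BCL2L1, which encodes the survival protein BCL-XL, had 234 and 246 CPM at 8 h, against 78.7 and 85.2 CPM at 0 h (1.55 ± 0.08, edgeR adjusted p = 4.74e-17). BCL2 had 153 and 143 CPM at 8 h, against 65 and 68.8 CPM at 0 h (1.15 ± 0.07) and BCL2A1, another survival protein, 85.8 and 87.1 CPM at 8 h, against 49.3 and 56.7 CPM at 0 h (0.71 ± 0.09). Both libraries at 8 h lay above both at 0 h for all 3. The genes BBC3, BCL2L11 and PMAIP1, which promote cell death, also rose, by 0.83 ± 0.12, 0.55 ± 0.08 and 0.53 ± 0.08, and were named after their values were seen.

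A part of the interferon-stimulated genes fell. Of 39 tested genes of the type I interferon response 17 fell and 2 rose, with a median of -0.42 (-0.19 after spike-in scaling). OAS1 and OAS2, which sense double-stranded RNA, had 2.18 and 2.62 CPM at 8 h, against 11.3 and 9.72 CPM at 0 h (-2.13 ± 0.18) and 8.98 and 8.69 CPM at 8 h, against 19.8 and 24.5 CPM at 0 h (-1.32 ± 0.12). ISG20, an exonuclease, had 15.6 and 18.8 CPM at 8 h, against 46.3 and 45.4 CPM at 0 h (-1.41 ± 0.12), and TRIM22, a tripartite motif protein, 11.2 and 10.03 CPM at 8 h, against 23.5 and 24.6 CPM at 0 h (-1.18 ± 0.15). All 4 were lower in both libraries at 8 h. Of 19 tested genes for nucleic acid sensing 2 rose and 4 fell (31.6% called, against 32.5% of expressed genes). AIM2, a DNA sensor, had 15.7 and 18.4 CPM at 8 h, against 48 and 44.2 CPM at 0 h (-1.43 ± 0.12), IFI16, another, fell by 0.71 ± 0.08, and the signalling kinase TYK2 had 606 and 645 CPM at 8 h, against 371 and 353 CPM at 0 h (0.79 ± 0.06). Of 12 genes for PML bodies and SUMO-linked corepressors 4 fell and 1 rose, with a median of -0.13 (0.12 after spike-in scaling). The 4 that fell were all members of the speckled protein family of PML bodies, SP110 (-1.60 ± 0.13), SP140 (-1.18 ± 0.13), SP140L (-1.07 ± 0.17) and SP100 (-0.65 ± 0.11), with SP100 at 29.1 and 32.7 CPM at 8 h, against 43.2 and 54.3 CPM at 0 h. SP100 was not called with spike-in scaling. PML itself had 45.2 and 44.6 CPM at 8 h, against 48.8 and 49.3 CPM at 0 h and was not called.

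Antigen presentation genes went both ways. Of 18 genes for HLA class I presentation 7 rose and 4 fell. HLA-B had 641 and 698 CPM at 8 h, against 444 and 466 CPM at 0 h (0.56 ± 0.07) and TAP1, the peptide transporter, 116.77 and 121 CPM at 8 h, against 79.9 and 80.1 CPM at 0 h (0.57 ± 0.08), whereas NLRC5, the class I transactivator, had 19.1 and 22.1 CPM at 8 h, against 41.5 and 33.1 CPM at 0 h (-0.86 ± 0.11). HLA class I genes are alike in sequence and how the counting shared reads among them was not stated, so the level of HLA-B is uncertain. Of 15 tested genes for HLA class II presentation 3 rose and 6 fell. CIITA, the class II transactivator, had 254 and 259 CPM at 8 h, against 203 and 182 CPM at 0 h (0.41 ± 0.08), CD74, the invariant chain, 908 and 881 CPM at 8 h, against 1121 and 1151 CPM at 0 h (-0.34 ± 0.07), and HLA-DMB, a peptide exchange chain, 1.79 and 1.63 CPM at 8 h, against 5.27 and 5.11 CPM at 0 h (-1.60 ± 0.23). CD74 was not called with spike-in scaling.

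Several housekeeping groups changed in few members. Of 35 proteasome genes 1 rose and 1 fell, and of 77 cytosolic ribosomal protein genes 4 fell and 0 rose, with medians of -0.05 and -0.07 that were 0.20 and 0.19 with spike-in scaling. Ribosomal protein genes took 7.92% ± 0.225 of the gene counts at 8 h, with 8.42% ± 0.149 at 0 h (SD, n = 2 each). Of 27 genes for ribosome biogenesis 2 rose and 3 fell, with UBTF, the RNA polymerase I factor, at 276 and 272 CPM at 8 h, against 398 and 409.5 CPM at 0 h (-0.56 ± 0.06; not called with spike-in scaling). Genes linked to FOXO factors and quiescence, by contrast, changed in many members. Of 16 tested 6 fell and 3 rose (56.25% called, against 32.5% of expressed genes), with a median of -0.73 (-0.48 after spike-in scaling). TSC22D3, a glucocorticoid and FOXO target, had 4.91 and 4.69 CPM at 8 h, against 13.9 and 16.7 CPM at 0 h (-1.67 ± 0.17). FOXO1 had 59.1 and 55.3 CPM at 8 h, against 93 and 90.4 CPM at 0 h (-0.68 ± 0.09). Of 37 tested KRAB zinc finger genes, whose proteins recruit the SUMO-linked corepressor TRIM28 to silence DNA, 12 rose and 0 fell, with a median of 0.18. That is 32.4% called, against 32.5% of expressed genes called and 16.7% higher. ZNF140 had 14.7 and 15.8 CPM at 8 h, against 7.62 and 6.69 CPM at 0 h (1.09 ± 0.15), and ZNF189 rose by 0.66 ± 0.11.

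The changes of OCI-LY3 were then set against those of the other 3 lines. OCI-LY19 shared most of the OCI-LY3 calls, with 2907 genes called in the same direction, which is 65.8% of the OCI-LY3 calls and 42.6% of the OCI-LY19 calls, where 39.4% of all genes were called. As the 0 h profiles under these labels were so alike (r = 0.984), they may not stand for independent lines, which was not tested. In U-2932, where 50.9% of genes were called, 1816 genes changed in the same direction (41.1% of the OCI-LY3 calls and 20.6% of the U-2932 calls) and 1149 were opposite. SU-DHL-10, where 12.6% were called, shared 795 (18.0% and 36.5%). Under all 4 line labels 278 genes were called in the same direction, 183 higher and 95 lower.

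An interaction contrast tested the change of OCI-LY3 minus the mean change of the other 3 lines for 12477 genes with at least 20 counts in each line. The difference was called for 2949 genes (23.6%), 1178 higher in OCI-LY3 (9.44%) and 1771 lower (14.2%). Without OCI-LY3 8 h replicate 2 the number was 1942, without OCI-LY19, the line that resembled OCI-LY3, it was 5047, and with spike-in scaling it was 913. Of 22 NF-kB targets with this test 18 were higher in OCI-LY3 and 0 lower, and of 12 inhibitors 10 were higher. The median changes of the targets were 0.71 in OCI-LY3, 1.51 in OCI-LY19, -1.05 in U-2932 and -0.13 in SU-DHL-10, and those of the inhibitors 0.77, 1.09, -0.77 and -0.21 in the same order, so OCI-LY19 had the higher medians and the contrast rests on the other two lines. TNFAIP3 changed by 1.68 ± 0.07 in OCI-LY3, and by 1.71 ± 0.06 in OCI-LY19, -0.62 ± 0.08 in U-2932 and -0.84 ± 0.10 in SU-DHL-10. NFKBIA changed by 0.80 ± 0.07 in OCI-LY3, and by 1.71 ± 0.07 in OCI-LY19, -1.48 ± 0.08 in U-2932 and -0.86 ± 0.08 in SU-DHL-10. Both rose in the lines labelled OCI-LY3 and OCI-LY19 and had negative values in the other two. Of 18 tested germinal centre genes 15 were lower in OCI-LY3 than the mean of the others, with BCL6 at -2.32 ± 0.08 in OCI-LY3 and -1.55 ± 0.08 in OCI-LY19, 0.71 ± 0.09 in U-2932 and -0.10 ± 0.07 in SU-DHL-10. The median changes of the germinal centre list were -0.81 in OCI-LY3, -0.91 in OCI-LY19, -0.10 in U-2932 and -0.18 in SU-DHL-10. Here too OCI-LY19 had the larger median change, and the contrast rests on U-2932 and SU-DHL-10. Of 25 genes for ATF4 and amino acid stress 17 were higher and 1 lower, with PPP1R15A at 1.67 ± 0.09 in OCI-LY3 and 1.40 ± 0.08 in OCI-LY19, -1.53 ± 0.09 in U-2932 and -0.87 ± 0.10 in SU-DHL-10. Of 27 cholesterol genes 18 were lower and 1 higher, and of 13 messages of the mitochondrial genome 10 were higher and 0 lower. These 10 need not have risen in OCI-LY3, where 2 were called.

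The largest called differences among genes at a mean of 5 CPM or more over the 16 libraries were also examined singly. SLC12A7 had the largest, 7.79 ± 0.44 (SE). DUSP8, a phosphatase of MAP kinases, had 13.6 and 13.8 CPM at 8 h, against 2.92 and 2.27 CPM at 0 h in OCI-LY3 and a difference of 2.62 ± 0.23. SAMSN1, an adaptor that restrains B-cell activation, had 102 and 101 CPM at 8 h, against 17.5 and 13.8 CPM at 0 h and a difference of 2.66 ± 0.13. MAFF, given above, had 30.7 and 31.6 CPM at 8 h, against 4.32 and 4.23 CPM at 0 h and a difference of 2.55 ± 0.21. For these genes OCI-LY19 rose too, by 2.54, 2.17 and 2.64, so the difference rests on SU-DHL-10 and U-2932, which had negative values in all 3. BHLHE40, a transcription repressor, and FOS, an AP-1 subunit, had differences of 3.10 ± 0.77 and 3.39 ± 0.54, with few counts in OCI-LY3. BHLHE40 also rose in OCI-LY19 and SU-DHL-10, by 1.6034 and 1.92 on the log2 scale. FOS had 0.645 and 1.73 CPM at 8 h, against 0.617 and 0.126 CPM at 0 h, and its call in OCI-LY3 was lost without 0 h replicate 2 or without 8 h replicate 2, with edgeR adjusted p of 0.288 and 0.514. The lowest differences were those of RGS2 (-3.20 ± 0.98), TNFRSF17, the plasma cell receptor BCMA (-2.66 ± 0.42), DNAJA4 (-2.47 ± 0.77), AMN (-2.41 ± 0.45), ATP6V0E2 (-2.26 ± 0.70) and ACY3 (-2.20 ± 0.32). TNFRSF17 had 0.298 and 0.247 CPM at 8 h, against 3.08 and 4.1 CPM at 0 h in OCI-LY3. All 6 were under 5 CPM in every OCI-LY3 library, so that these differences rest on few counts. The OCI-LY3 call itself was lost without at least 1 library for RGS2, DNAJA4, AMN and ATP6V0E2.

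**Figure D4:**
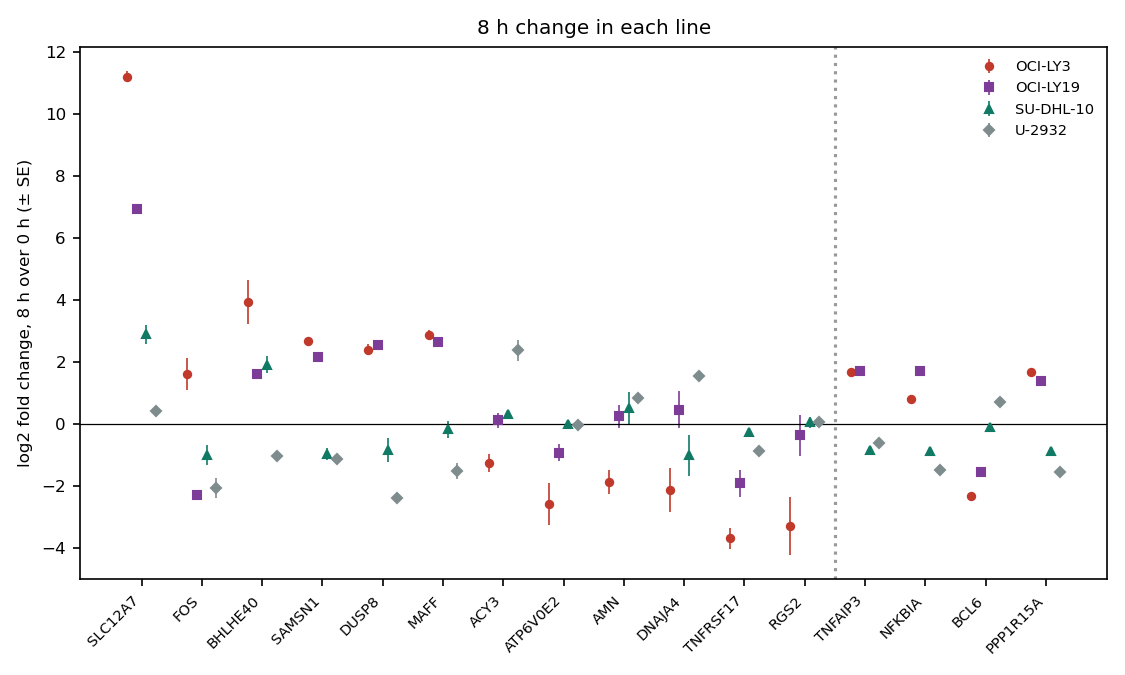
Log2 fold change of 8 h over 0 h (y axis) with its standard error in the lines OCI-LY3, OCI-LY19, SU-DHL-10 and U-2932, for the 12 genes with the largest called differences (left of the dotted line) and for TNFAIP3, NFKBIA, BCL6 and PPP1R15A. OCI-LY3 and OCI-LY19 lie on the same side of 0 for SLC12A7, BHLHE40, SAMSN1, DUSP8, MAFF, TNFRSF17, ATP6V0E2 and RGS2, whereas FOS is above 0 in OCI-LY3 and below it in the other 3 lines.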

How the data were processed

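The 16 RNA libraries were deposited by the authors as raw counts per gene, in a table that also holds 92 spike-in RNAs. Per the labels' protocols, poly(A) RNA was enriched and PCR duplicates were removed. The submitters' processing notes name Trimmomatic, DESeq2, Bowtie2, MACS2, HOMER, bedtools and, as builds, hg19 and GRCh38, without saying which served the counts. For the counts, the aligner, counter, annotation and strand setting are not given in the sources used here. ATAC libraries (8 samples) were not analysed here.

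Symbols were found for 58207 of 58676 gene IDs, and spike-in RNAs were kept out of library sizes. The edgeR filter filterByExpr over 8 groups left 17327 genes, which were scaled by TMM and fitted with a quasi-likelihood model over all 16 libraries (edgeR 4.0.16, limma 3.58.1, R 4.3.3; 8 residual degrees of freedom, median biological coefficient of variation 8.54%). Each SE is the size of the log2 fold change over the root of F. The interaction contrast was limited, after seeing the data, to genes with 20 counts in each line.

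The members, the 47 gene lists and the 6 marker lists were chosen with earlier results of these data known. Genes were named by rule, namely the 12 highest and 12 lowest called changes at a mean of 5 CPM or more with groups apart, up to 4 called members per list with the smallest p, genes with 3 counts or fewer in either group and 5 CPM in the other, the 6 highest and 6 lowest called differences between lines, and a fixed set that held SAE1, UBA2, SUMO2, SUMO3, MYC, BCL2, BCL6, IRF4 and PRDM1. Some genes that the rule names, and 1 list, are not reported here. Clones, antisense RNAs, pseudogenes and variable segments were not named. Intervals (95%, exact) and floors cover counting error only. Alternatives were RLE scaling, total counts, spike-in scaling, no filter, a stricter filter, the 4 OCI-LY3 libraries alone, a 1.5-fold threshold, leaving out each library, a replicate block, DESeq2 1.42.0 and, added after seeing the data, leaving out OCI-LY19. The fit was also run on counts simulated from its own fitted spread. Its outcome is not reported here, and such counts cannot show whether that spread is right for the real libraries.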

Additional observations from a re-analysis of the deposited data

Results flagged for a closer look

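Results are given here because the 8 h change differed between OCI-LY3 and the mean of OCI-LY19, SU-DHL-10 and U-2932 by a test of the difference itself (edgeR's interaction contrast, Benjamini-Hochberg adjusted). The difference was called for 2949 genes. Among the named genes it was positive for SLC12A7 (7.79 on the log2 scale), FOS (3.39), BHLHE40 (3.10), SAMSN1 (2.66), DUSP8 (2.62) and MAFF (2.55). It was negative for RGS2 (-3.20), TNFRSF17 (-2.66), DNAJA4 (-2.47), AMN (-2.41), ATP6V0E2 (-2.26) and ACY3 (-2.20). OCI-LY19 also had positive changes for SLC12A7, BHLHE40, SAMSN1, DUSP8 and MAFF, of 6.94, 1.6034, 2.17, 2.54 and 2.64 on the log2 scale, and BHLHE40 also rose in SU-DHL-10, by 1.92. Whether the likeness of OCI-LY3 to OCI-LY19 bears on the differences of single genes was not tested.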

How the results depend on the processing

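The number of called genes was 4420. It was 4411 with RLE scaling, 4484 with total counts, 3554 with spike-in scaling, 4134 without a filter, 4449 with a stricter filter, 4944 with the 4 OCI-LY3 libraries alone, 4377 without OCI-LY19 and 4024 with DESeq2, and 3232 to 3335 with 1 OCI-LY3 library left out. The test against 1.5-fold called 757. Of the 4420 calls 2920 held with spike-in scaling, 3953 with DESeq2 and 4195 with the 4 libraries alone. Under any of these 0 were called in the other direction, though some changed sign without being called. The difference from the other lines was called for 2949 genes, for 2803 to 3186 with other filters, RLE scaling, total counts or the replicate block, for 2610 with DESeq2, for 913 with spike-in scaling, for 224 against 1.5-fold and for 5047 without OCI-LY19. With 1 OCI-LY3 library left out it was called for 1942 to 2348. The cause of these shifts was not tested, except that a higher fold threshold gives fewer calls by construction. Fewer libraries did not always give fewer calls. The 4 OCI-LY3 libraries alone gave 4944, and the difference without OCI-LY19 gave 5047.

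Of 219 named genes 6 changed sign with spike-in scaling, namely ATP5F1A (0.075), ATP5F1C (0.063), PSME4 (0.073), RPL37 (0.061), RPL38 (0.056) and RPS3A (0.0048), and 37 more lost their call. None of the called ones changed sign under any other alternative. Same-numbered OCI-LY3 libraries had a correlation of deviations from their group means of 0.038 over 9252 genes, so the numbers were not taken to pair the samples. With the replicate block 4300 genes were called, 4206 of them among the 4420, and 3 named genes lost their call. The OCI-LY3 libraries at 0 h were the shallower, and genes with few counts there have wide errors.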
